A study of Homo sapiens with 4 samples.

Results

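The genes described here belong to the ubiquitin system, as ligases, conjugating enzymes, substrate adaptors or deubiquitinases, in HT29 cells sorted by surface CD26. They were taken by symbol from the authors' list of probe sets that differed between CD26+ and CD26− cells, where a probe set is a group of short oligonucleotides that reads 1 transcript on an array. A single gene symbol starting with UBE2, UBE3, HERC, RNF, TRIM, MARCH, CUL, FBXL, FBXO, FBXW, KLHL, USP or OTU made a probe set a member. This gave 156 of 8414 listed probe sets with a single symbol, for 123 of 6604 genes: 11 E2 conjugating enzymes, 5 genes of the HECT type, 25 RNF, 16 TRIM, 3 MARCH, 4 cullin, 19 F-box, 14 KLHL, 21 USP and 5 OTU genes. The name prefix is not always the function. UBE2CBP is now named UBE3D, a ligase, and HERC2P3 is a pseudogene, yet both remained members.

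HT29 is an established human colorectal adenocarcinoma line, and CD26, encoded by DPP4, is a surface peptidase. Its cells were stained for CD26 and separated by FACS, and only those with the strongest and the weakest staining were collected. RNA was measured on Affymetrix U133 Plus 2.0 arrays, with 2 arrays of CD26+ cells and 2 arrays of CD26− cells. The labels name them as biological replicates but do not give the culture or sort behind each, so a p-value reflects no more than how far these arrays spread, which may be technical. All 4 samples came from the same line, so a difference between the groups is one within HT29.

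The arrays of a group were not alike. DPP4, the gate of the sort, had signals of 6649 and 2513 in CD26+ cells, against 1952 and 6465 in CD26− cells, on 203717_at. The array labelled CD26− replicate 2 thus carried about as much DPP4 transcript as CD26+ replicate 1. On 203716_s_at the signals were 516 and 549 in CD26+ cells, against 203 and 867 in CD26− cells. The sort was on surface protein, which the arrays do not read. Another array, CD26+ replicate 2, was unlike the rest, with correlations of 0.303 to 0.333 to the other arrays, which correlated with each other at 0.904 to 0.919. Its median signal was 270.3, against 79.1 on CD26+ replicate 1, and against 76.1 and 96.7 on the CD26− arrays. The spike-in control probe sets had a median of 79202 on CD26+ replicate 2 and 5409 on CD26+ replicate 1, against 4399 and 4765 on the CD26− arrays. Of 18 epithelial markers 7 had a single-symbol probe set in the list, and their signals summed to 59947 and 2307 in CD26+ cells, against 62582 and 137096 in CD26− cells. Of the 7 markers, 4 were higher and 3 lower on CD26+ replicate 1 than on CD26− replicate 1. All 7 were at least 2-fold lower on CD26+ replicate 2 than on CD26− replicate 2. The 3 of 9 fibroblast markers summed to 468 and 5113 in CD26+ cells, against 54.2 and 995 in CD26− cells. The 3 of 12 immune markers summed to 2495 and 305 in CD26+ cells, against 6806 and 4508 in CD26− cells, and the endothelial marker CLDN5, 1 of 7, read 39.6 and 308 in CD26+ cells, against 14.4 and 26.4 in CD26− cells. These sums add different probe sets, and the markers came from the same list, so the contrast between CD26+ replicate 1 and CD26− replicate 1 was fixed by its threshold. None of these markers was at 0 on any array. The part of these differences in the results on the ubiquitin genes was not tested. In bulk RNA, fewer cells of a type and less RNA per cell cannot be told apart.

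Ubiquitin is a small protein that is attached to other proteins by a cascade. An E1 enzyme activates it, an E2 enzyme carries it, and an E3 ligase brings the loaded E2 to the substrate. HECT ligases take the ubiquitin onto themselves first, whereas RING ligases such as the RNF, TRIM and MARCH proteins let the E2 transfer it directly. Cullins are scaffolds that join a RING protein to a substrate receptor, which is often an F-box protein on CUL1 and a BTB-kelch (KLHL) protein on CUL3. Deubiquitinases of the USP and OTU families remove ubiquitin again. Chains of ubiquitin direct proteins to the proteasome or change their partners and location, and in the colon the pathway is best known for the turnover of beta-catenin, the effector of WNT signalling.

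The regulatory sequences of the members that stood apart in all comparisons of arrays, described below, are shown first. RefSeq promoters on GRCh38.p14 were matched for 91 of the 123 members, and the 250 bases before each start were searched on both strands. The GC box GGGCGG was present in 59 of the 91 (64.8%), against 42.3% of 27305 promoters. The CCAAT box (CCAAT) was found in 28.6% of members against 33.0% of all promoters, TATAAA in 7.69% against 11.1%, the ETS-type motif CCGGAAG in 9.89% against 8.82%, and the CRE motif TGACGTCA in 1.10% against 1.77%. The median GC content was 65.6% in members and 58% in all promoters, and a GC box is more likely to occur in GC-rich sequence. The 120 bases before the start are printed 5′ to 3′ on the strand of the gene for 3 genes with higher signals in CD26+ cells (HERC2, USP21 and KLHL12) and 3 with lower signals (USP15, UBE2D3 and USP32). Capitals mark GC and CCAAT boxes on either strand, so that CCGCCC and ATTGG are matches on the reverse strand. The windows lie at chr15:28322180-28322299, chr1:161159380-161159499, chr1:202928600-202928719, chr12:62260284-62260403, chr4:102868896-102869015 and chr17:60392134-60392253, with HERC2, KLHL12, UBE2D3 and USP32 on the minus strand.
HERC2: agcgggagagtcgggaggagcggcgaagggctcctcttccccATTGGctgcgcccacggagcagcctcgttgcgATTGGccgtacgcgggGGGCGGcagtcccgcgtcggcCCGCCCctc
USP21: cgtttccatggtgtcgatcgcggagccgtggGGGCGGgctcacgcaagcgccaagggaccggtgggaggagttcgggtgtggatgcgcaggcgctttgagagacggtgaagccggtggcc
KLHL12: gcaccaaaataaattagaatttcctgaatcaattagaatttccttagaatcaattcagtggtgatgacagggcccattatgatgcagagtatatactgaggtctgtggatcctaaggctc
USP15: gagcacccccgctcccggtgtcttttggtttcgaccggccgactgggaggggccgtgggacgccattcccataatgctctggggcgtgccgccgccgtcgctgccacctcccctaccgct
UBE2D3: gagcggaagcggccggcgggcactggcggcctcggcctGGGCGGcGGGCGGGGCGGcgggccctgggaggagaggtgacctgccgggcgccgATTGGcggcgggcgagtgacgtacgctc
USP32: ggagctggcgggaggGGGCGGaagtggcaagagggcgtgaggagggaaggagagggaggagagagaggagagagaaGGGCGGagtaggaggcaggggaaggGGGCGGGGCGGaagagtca
HERC2 held 2 GC boxes and 2 CCAAT boxes in this window, USP21 held 1 GC box, UBE2D3 held 3 GC boxes with 1 CCAAT box, and USP32 held 4 GC boxes. In UBE2D3 and USP32 a pair of GC boxes overlapped by a base. KLHL12 and USP15 held none of the motifs searched there. The GC content over 250 bases was 33.2% in KLHL12 and between 60.8% and 75.2% in the other windows printed. A GC box was therefore present on both sides of the comparison: among matched promoters, over 250 bases, in 3 of 4 genes at least 2-fold higher in all pairs of arrays and in 6 of 7 genes at least 2-fold lower. These matches are letters in a window and were not measured as binding sites.

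The list was made from a single pair of arrays. Every member differed by at least 2-fold between CD26+ replicate 1 and CD26− replicate 1, with 71 genes higher and 52 lower in CD26+ cells, which is 57.7% and 42.3% and the same split as among all 6603 single-symbol genes tested (57.7% and 42.3%). The members were chosen by these values, which therefore test nothing. The members nearest the threshold were OTUD4 at 2.00-fold, RNF213 at 2.01-fold and the USP21 probe set 234735_s_at at 2.02-fold, and the widest apart were RNF157 at 19.5-fold, TRIM14 at 14.0-fold and UBE2Z at 12.3-fold. Probe sets just outside the threshold carry no gene symbol in the files used here, so no values can be given for them. A member gene is therefore read only from its listed probe sets, and any other probe set of that gene on the array was not weighed.

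The direction of that pair was often not seen on the other arrays. Of the 71 genes on the higher side, 22 were at least 2-fold higher in CD26+ replicate 2 than in the array labelled CD26− replicate 2 (31.0%, against 38% of all genes chosen the same way), and 29 were at least 2-fold lower (40.8%, against 34.5%). Of the 52 genes on the lower side, 27 were again at least 2-fold lower (51.9%, against 45.2%) and 16 were at least 2-fold higher (30.8%, against 29.2%). Over all members, CD26+ replicate 2 was at least 2-fold above the array labelled CD26− replicate 2 in 38 (30.9%, against 34.3% of all genes) and below it in 56 (45.5%, against 39%). CD26+ replicate 1 was at least 2-fold above that array in 18 of the 71 genes (25.4%, against 33.4%) and below it in 21 of the 52 (40.4%, against 32%). Both CD26+ arrays were above both CD26− arrays in 23 members (18.7%, against 24.3% of all genes) and below both in 27 (21.95%, against 19.5%). The CD26+ arrays were at least 2-fold apart from each other in 97 of 123 members (78.9%, against 72.7%) and the CD26− arrays in 29 (23.6%, against 32.3%). The members' shares lay within 10 percentage points of those of all genes in each of these counts.

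**Figure D1:**
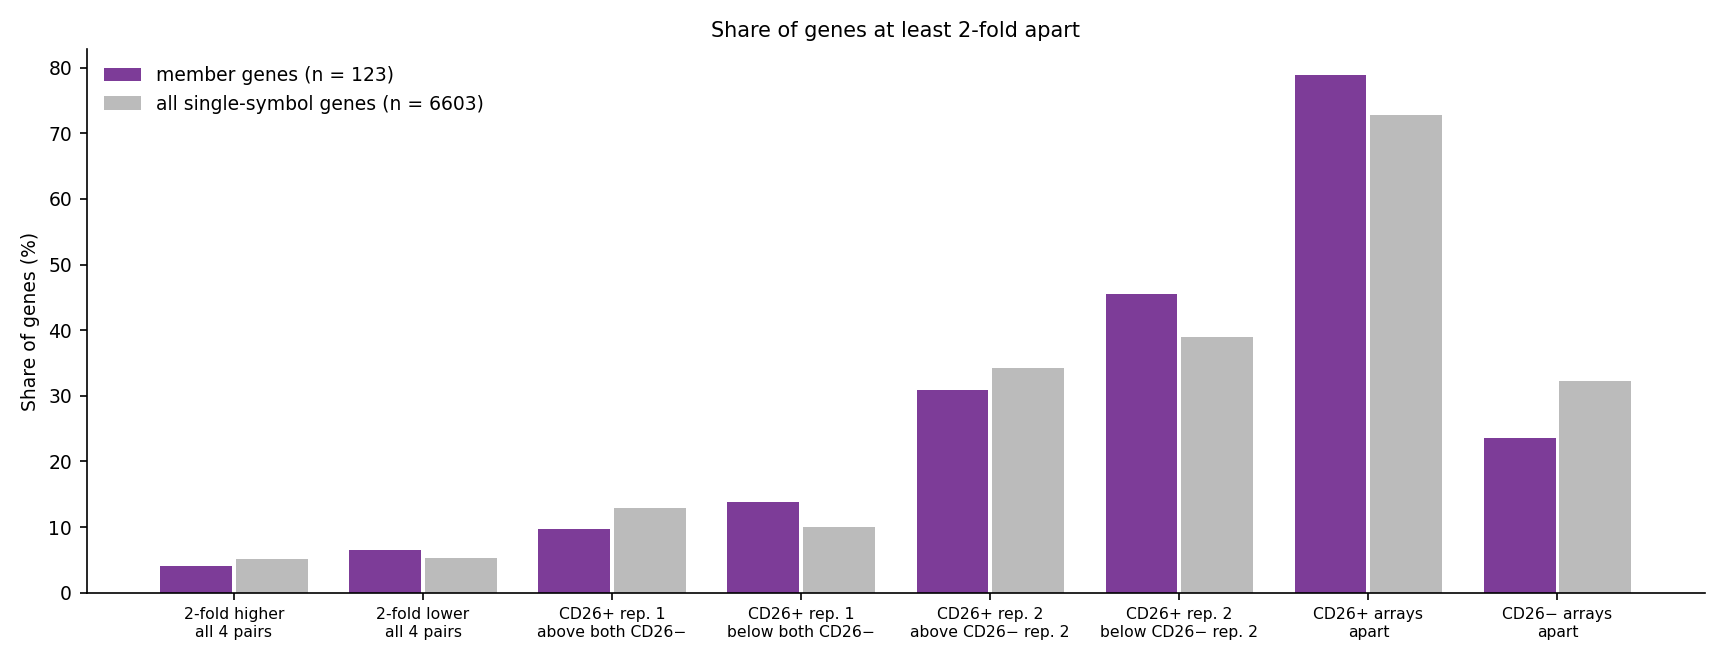
Share of genes, in percent, that were at least 2-fold apart in each comparison of arrays on the log2(signal + 16) scale, for the 123 members (purple) and for all 6603 single-symbol genes of the same list (grey). The members had 4.07% higher and 6.504% lower in all 4 pairs, close to the 5.16% and 5.33% of all genes, and 78.9% were at least 2-fold apart between the CD26+ arrays.

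No member passed the test. limma, fitted to all 54613 probe sets on quantile-normalized log2(signal + 16) with Benjamini-Hochberg adjustment, called 0 probe sets at an adjusted p under 0.05, and the adjusted p of the members lay between 0.79 and 0.998. At an unadjusted p under 0.05 the fit had 853 probe sets (1.56%), 206 of 6603 genes (3.12%) and 6 of 123 members (4.88%), which were HERC2, USP15, FBXO22, UBE2D3, USP32 and RNF34. The median log2 fold change was -0.07 over the members and 0.04 over all genes, and without CD26+ replicate 2 it was 0.48 and 0.42. In the absence of calls, members are described by whether every CD26+ array was at least 2-fold above or below every CD26− array. This held for 5 genes higher in CD26+ cells (4.07%, against 5.16% of all genes) and 8 genes lower (6.504%, against 5.33%). Without CD26+ replicate 2 it held for 12 higher (9.76%, against 12.9%) and 17 lower (13.8%, against 10.1%), and without the array labelled CD26− replicate 2 for 16 higher (13.01%, against 15.1%) and 16 lower (13.01%, against 15.4%). In the text that follows, a signal is the deposited linear value and a log2 fold change is the fitted one, CD26+ over CD26−, given with its standard error (n = 2 per group). Whether groups overlap is judged on the normalized scale, on which CD26+ replicate 2, with the highest median, is scaled down.

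The 5 members higher in CD26+ cells were a HECT ligase, 2 KLHL adaptors, a MARCH ligase and a deubiquitinase. HERC2, a giant HECT ligase that acts in the DNA damage response, had signals of 89.7 and 1738 in CD26+ cells, against 15.8 and 11.8 in CD26− cells. Both CD26− arrays were below the lower quartile of their signals (18.3 and 24.7), and CD26+ replicate 2 was far above CD26+ replicate 1. The log2 fold change was 3.80 ± 1.43 and was 1.86 without CD26+ replicate 2. The probe set aligns once, to chr15:28356185-28567252 in the coordinates of the authors' table, whose build is not given in the sources used here, and HERC2 has partial copies in the genome.

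KLHL14, a BTB-kelch protein, had 92.9 and 1081 in CD26+ cells, against 14.8 and 47.6 in CD26− cells, with a log2 fold change of 2.79 ± 1.19. KLHL12, which with CUL3 ubiquitinates the COPII coat protein SEC31, had 217 and 866 in CD26+ cells, against 77.1 and 95.7 in CD26− cells, with a log2 fold change of 1.79 ± 0.89. For both adaptors the CD26− arrays lay close together or low, and the CD26+ arrays were far apart from each other. The KLHL12 probe set has 2 alignments, on chromosomes 1 and 22, so its signal may not come from KLHL12 alone. MARCHF11, a membrane-bound RING ligase, was read at 66.9 and 198 in CD26+ cells, against 15.6 and 13.1 in CD26− cells. Both CD26− arrays were again below their lower quartile, close to the 16 added before taking logs, so the log2 fold change of 1.36 ± 0.81 depends on that constant and was 1.74 with 1 added and 0.82 with 64 added. USP21, a deubiquitinase of histone H2A, had 509.8 and 1792 in CD26+ cells, against 171 and 213 in CD26− cells, with a log2 fold change of 2.22 ± 1.02. Its other probe sets did not separate the groups in the same way: 234735_s_at had a log2 fold change of 1.18 ± 0.86 and 232219_x_at one of 0.14 ± 0.92.

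The 8 members lower in CD26+ cells included 3 deubiquitinases, 2 F-box proteins, a conjugating enzyme and 2 RING-family genes. USP15, which removes ubiquitin from the TGF-beta receptor and its SMAD effectors, had 23.8 and 63.3 in CD26+ cells, against 132 and 222 in CD26− cells. Both CD26+ arrays were low, and its log2 fold change of -2.32 ± 0.83 lay between -2.64 and -2.00 when each array was left out. It had the lowest unadjusted p of the members in limma (0.0346, adjusted p 0.79), and its probe set aligns to chr12:62654177-62730471. USP32, a large deubiquitinase, had 72.7 and 37.3 in CD26+ cells, against 235 and 474 in CD26− cells, with a log2 fold change of -2.70 ± 1.06. USP45, which deubiquitinates the DNA repair protein ERCC1, had 145 and 29.6 in CD26+ cells, against 472 and 702 in CD26− cells, with a log2 fold change of -2.99 ± 1.26. Its second probe set, 224441_s_at, was at or below 80.8 on every array and gave -0.91 ± 0.87.

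The F-box protein FBXO22, a receptor that directs the histone demethylase KDM4A to degradation, had 22.3 and 19.9 in CD26+ cells, against 105 and 116 in CD26− cells. The arrays of each group lay close together as deposited, but the CD26+ arrays were at 5.89 and 4.52 on the normalized log2 scale. Its log2 fold change was -2.26 ± 0.90, or -1.58 without CD26+ replicate 2. FBXO7, an F-box protein whose loss causes an inherited form of parkinsonism, had 36.7 and 28.3 in CD26+ cells, against 129 and 154 in CD26− cells, with a log2 fold change of -2.22 ± 0.94. UBE2D3, an E2 that serves a wide range of RING ligases, had 339 and 228 in CD26+ cells, against 1133 and 1547 in CD26− cells. The groups were well apart, with a log2 fold change of -2.46 ± 0.98, and the probe set aligns to a short stretch at chr4:103731527-103732000.

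RNF34, a RING ligase of initiator caspases, had 82.5 and 67.9 in CD26+ cells, against 657 and 291 in CD26− cells, with a log2 fold change of -2.65 ± 1.03. TRIM73 had 489 and 11.9 in CD26+ cells, against 1231 and 1867 in CD26− cells. Both CD26+ arrays were below both CD26− arrays but far apart from each other, and the log2 fold change of -3.77 ± 1.68 became -1.34 without CD26+ replicate 2. TRIM73 has near-identical copies on chromosome 7, and its probe set has 2 alignments there, so the signal cannot be given to this gene alone. In each of the 8 lower genes other than UBE2D3, CD26+ replicate 2 was below the lower quartile of that array (94.3).

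**Figure D2:**
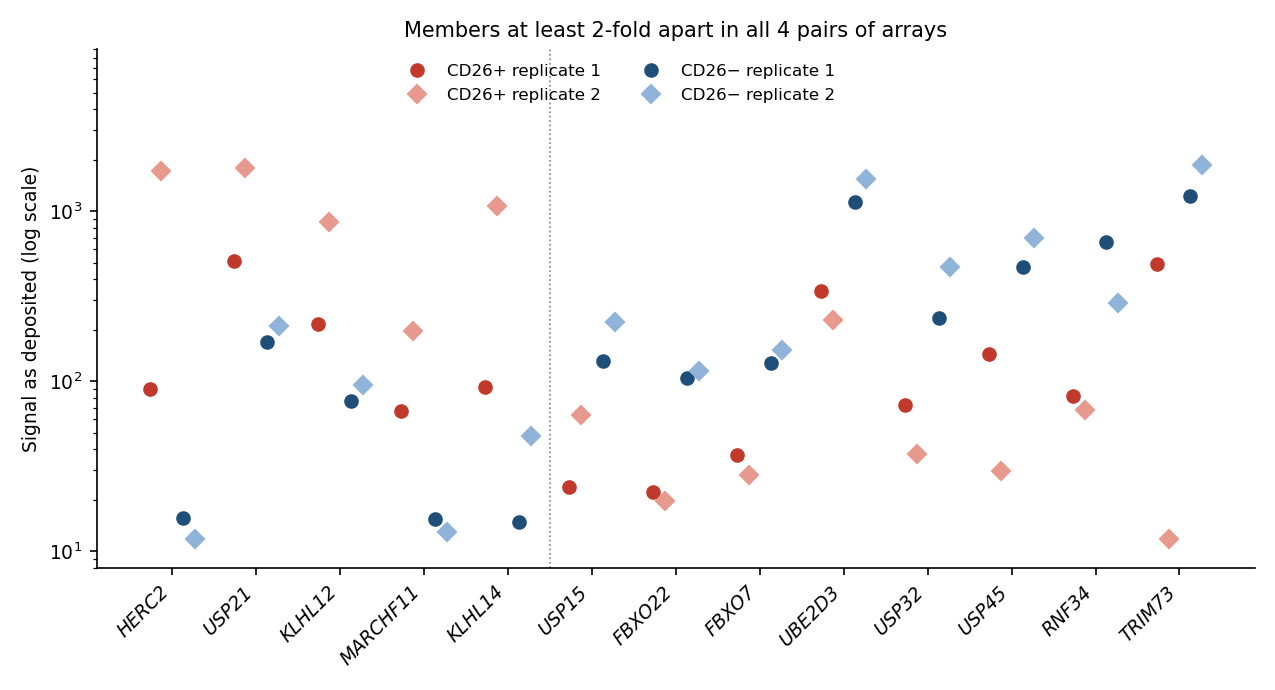
Deposited signal (log axis) of the 13 members in which every CD26+ array differed by 2-fold or more, one way, from every CD26− array, with CD26+ arrays in red and CD26− arrays in blue, replicate 1 as circles and replicate 2 as diamonds. Left of the dotted line CD26+ cells were higher, with CD26+ replicate 2 the highest point in each of the 5 genes, and right of it they were lower, as in FBXO22 at 22.3 and 19.9 against 105 and 116.

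More E2 enzymes were lower than higher in CD26+ cells. Of 11 genes, 6 had both CD26+ arrays below both CD26− arrays and 3 had both above (54.5% and 27.3%, against 19.5% and 24.3% of all genes), and the family median was -1.11 on the log2 scale, or -0.76 without CD26+ replicate 2. UBE2H, the E2 of the CTLH ligase complex, had 1434 and 58.1 in CD26+ cells, against 3169 and 2755 in CD26− cells, on 222420_s_at. Its log2 fold change of -3.57 ± 1.78 rested largely on CD26+ replicate 2 and was -0.95 without it. UBE2B, the RAD6 enzyme of DNA damage tolerance, had 239.7 and 423 in CD26+ cells, against 544 and 612 in CD26− cells, and UBE2W, which attaches ubiquitin to protein N-termini, had 195 and 415 in CD26+ cells, against 489 and 708 in CD26− cells. In both the groups did not overlap. UBE2D4, a close relative of UBE2D3, went the other way, with 1862 and 3672 in CD26+ cells, against 808 and 1382 in CD26− cells and a log2 fold change of 1.57 ± 0.97, and its second probe set gave 1.83 ± 1.06. UBE2J2, an E2 anchored in the endoplasmic reticulum, had 159 and 616 in CD26+ cells, against 71.3 and 37.7 in CD26− cells.

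Apart from HERC2, the HECT-type genes did not separate the groups by 2-fold. HERC3 had 118 and 620.0 in CD26+ cells, against 47.2 and 86.6 in CD26− cells, with a log2 fold change of 1.38 ± 0.88 and no overlap of the groups. UBE3C, a ligase that extends chains at the proteasome, had 21.97 and 164 in CD26+ cells, against 66.03 and 40.5 in CD26− cells, and here the groups overlapped. The HERC2P3 probe set aligns to 7 places and cannot be assigned to 1 gene.

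Among the 25 RNF genes, RNF34 was the only one at least 2-fold apart in all pairs. The groups did not overlap in 8 of the 25, with 5 higher (20%, against 24.3% of all genes) and 3 lower in CD26+ cells (12%, against 19.5%), and the family median was 0.02. RNF10 had 3326 and 15408 in CD26+ cells, against 1606 and 2115 in CD26− cells and a log2 fold change of 2.04 ± 1.12. RNF139, a sterol-regulated ligase of the endoplasmic reticulum also called TRC8, had 2302 and 10330.0 in CD26+ cells, against 6959 and 4685 in CD26− cells. The CD26+ arrays lay on either side of the CD26− arrays, and the log2 fold change was 0.01 ± 1.13, or -1.28 without CD26+ replicate 2. RNF20, which ubiquitinates histone H2B, had 2107 and 29.4 in CD26+ cells, against 947 and 1559 in CD26− cells. RNF6 had 3245 and 48.5 in CD26+ cells, against 7610.3 and 4056 in CD26− cells. For both genes the low value on CD26+ replicate 2 set the log2 fold change, which was -2.40 ± 2.06 and -4.01 ± 2.13 with it but 0.71 and -0.79 without it. RNF31, the catalytic subunit of the linear ubiquitin ligase, had 85.4 and 1393 in CD26+ cells, against 39.3 and 17.2 in CD26− cells. Its probe set is 1 of 2 member probe sets found to align to the strand opposite the gene, against 112 on the strand of the gene. For the other 42 of the 156 member probe sets the strands were not compared. RNF157 differed widely between the CD26− arrays, with 413 and 182 in CD26+ cells, against 21.2 and 627 in CD26− cells.

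The TRIM family had a median of 0.004, with the groups apart in 2 of 16 genes higher (12.5%, against 24.3% of all genes) and 4 lower in CD26+ cells (25%, against 19.5%). TRIM2, a ligase known from neurons, had 2474 and 605 in CD26+ cells, against 1004 and 3217 in CD26− cells, and the groups overlapped. TRIM23, which carries an ARF domain, had 64.02 and 44.7 in CD26+ cells, against 143 and 286 in CD26− cells, with a log2 fold change of -2.16 ± 1.01. TRIM14 was lowest on CD26− replicate 1, with 247 and 138 in CD26+ cells, against 17.6 and 207 in CD26− cells. Among the MARCH ligases, MARCHF2 had 283 and 653 in CD26+ cells, against 68.98 and 209 in CD26− cells, with a log2 fold change of 1.21 ± 0.86, and MARCHF3 had 769.8 and 127 in CD26+ cells, against 342 and 553 in CD26− cells. The CD26+ arrays of MARCHF3 lay on either side of the CD26− arrays.

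None of the 4 cullins separated the groups. CUL1, the scaffold of the F-box ligases, had 136 and 1364 in CD26+ cells, against 351 and 363 in CD26− cells. CUL4A, the scaffold of the DDB1 ligases, had 142 and 951 in CD26+ cells, against 315 and 342 in CD26− cells. In both, CD26+ replicate 1 was the lowest and CD26+ replicate 2 the highest array, so the log2 fold changes of 0.55 ± 1.19 and 0.25 ± 1.005 became -0.90 and -0.76 without CD26+ replicate 2. CUL5, which works with SOCS-box proteins, had 302 and 23.6 in CD26+ cells, against 149 and 287 in CD26− cells, and its probe set aligns to the strand opposite the gene. CUL7 had 171 and 325 in CD26+ cells, against 71.3 and 159 in CD26− cells.

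The F-box genes had a median of -0.57, or 0.51 without CD26+ replicate 2, with 2 of 19 higher (10.5%, against 24.3% of all genes) and 4 of 19 lower (21.1%, against 19.5%) without overlap of the groups. FBXL4 had 104 and 24.6 in CD26+ cells, against 254 and 550.1 in CD26− cells, with a log2 fold change of -2.74 ± 1.21. FBXO25 had 689.6 and 1677 in CD26+ cells, against 305 and 649.8 in CD26− cells, and FBXO30 had 329 and 761 in CD26+ cells, against 735 and 561 in CD26− cells. A pair of F-box genes differed strongly between the CD26− arrays. FBXO5, the inhibitor of the anaphase-promoting complex, had 1130.3 and 44.6 in CD26+ cells, against 2369.6 and 252 in CD26− cells, and FBXO32, known from muscle atrophy, had 791 and 139 in CD26+ cells, against 197 and 1958 in CD26− cells.

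The 14 KLHL adaptors had 4 higher (28.6%, against 24.3% of all genes) and 4 lower in CD26+ cells (28.6%, against 19.5%) without overlap, and a median of 0.48, or -0.11 without CD26+ replicate 2. KLHL15, a receptor for a regulatory subunit of phosphatase PP2A, had 249 and 1966 in CD26+ cells, against 591 and 344 in CD26− cells. CD26+ replicate 1 was the lowest array and CD26+ replicate 2 the highest. KLHL9, which acts with CUL3 in mitosis, had 47.7 and 307 in CD26+ cells, against 163 and 514 in CD26− cells, and KLHL21, a further CUL3 adaptor of mitosis, had 493 and 43.5 in CD26+ cells, against 1354 and 686 in CD26− cells. On the normalized scale the groups did not overlap in either gene, although CD26+ replicate 2 of KLHL9 was above CD26− replicate 1 as deposited, with log2 fold changes of -1.55 ± 0.90 and -2.84 ± 1.53.

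The 21 USP deubiquitinases had a median of -0.07, or -0.35 without CD26+ replicate 2, with 3 higher (14.3%, against 24.3% of all genes) and 5 lower in CD26+ cells (23.8%, against 19.5%) without overlap. USP12, a partner of UAF1, had 1509.6 and 483 in CD26+ cells, against 3229 and 1252 in CD26− cells. USP31 had 3 probe sets below both CD26− arrays on both CD26+ arrays, with log2 fold changes of -2.28 ± 1.25, -1.82 ± 1.04 and -1.54 ± 0.89, and the one that stands for the gene read 788 and 168 in CD26+ cells, against 1613 and 1270.2 in CD26− cells. USP2 had 96.3 and 1469 in CD26+ cells, against 13.2 and 69.2 in CD26− cells, and USP5, which takes apart free chains, had 66.1 and 1154 in CD26+ cells, against 16.4 and 56.7 in CD26− cells. In both, CD26+ replicate 2 was far above the other arrays. USP18, which removes the ubiquitin-like ISG15, had 229.6 and 107 in CD26+ cells, against 95.1 and 339 in CD26− cells, its groups overlapped, and its probe set has 2 alignments.

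All 5 OTU deubiquitinases came from the genes on the lower side of the pair that chose the members. Only OTUD6B had both CD26+ arrays below both CD26− arrays, with 593 and 54.3 in CD26+ cells, against 2115 and 694 in CD26− cells and a log2 fold change of -2.94 ± 1.57. OTUD4, whose probe set has 2 alignments, had 1903 and 2942 in CD26+ cells, against 3809 and 2857 in CD26− cells, with a log2 fold change of -0.08 ± 0.90. OTUD5 had 37.7 and 405 in CD26+ cells, against 106 and 141 in CD26− cells, and OTUB2 had 18.2 and 403 in CD26+ cells, against 48.4 and 14.98 in CD26− cells. In both, CD26+ replicate 2 was the highest array.

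**Figure D3:**
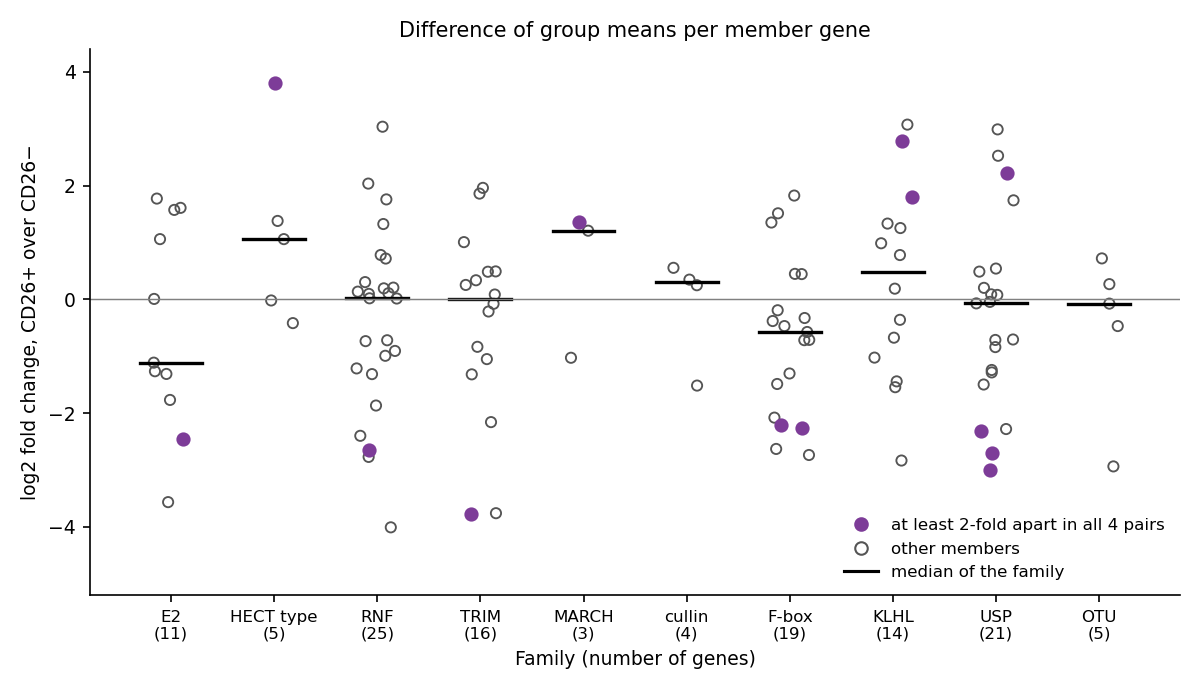
Fitted log2 fold change, CD26+ over CD26−, (n = 2 arrays per group) for each of the 123 members, by family, with the number of genes under each name and the family median as a bar. Filled points are the 13 genes set apart by 2-fold or more in every pairing, from HERC2 at 3.80 to TRIM73 at -3.77, and the points of most families spread on both sides of 0.

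Probe sets of the same gene did not always give the same direction. Of 22 members with 2 or more listed probe sets, 11 had log2 fold changes of both signs, and 2 of the 22 had them without CD26+ replicate 2. The CD26+ array then left, CD26+ replicate 1, is the one that chose the probe sets. In the pair that chose them, 2 of the 22 genes also had both signs, so the lower count is no separate support. RNF181 had log2 fold changes of 2.51 ± 1.31 on 229932_at and -1.87 ± 1.89 on 223064_at, which were 0.83 and 0.95 without CD26+ replicate 2. HERC4 had 1.06 ± 1.90 on 208055_s_at, -1.31 ± 1.08 on 232026_at and -1.70 ± 0.88 on 208054_at, and the last read 24.2 and 30.3 in CD26+ cells, against 58.5 and 97.4 in CD26− cells.

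TRIM29, a TRIM protein that lacks the RING domain, had its representative probe set, 202504_at, at 1625 and 43.1 in CD26+ cells, against 3830.1 and 2793 in CD26− cells, whereas 211001_at had 14.8 and 790.0 in CD26+ cells, against 61.9 and 84.3 in CD26− cells. All 3 of its probe sets were lower on CD26+ replicate 1 than on both CD26− arrays, and CD26+ replicate 2 was the lowest array on 202504_at and the highest on the others. USP34, which stabilizes axin in the WNT pathway, had 371 and 45.9 in CD26+ cells, against 922 and 2141 in CD26− cells, on 233595_at, a log2 fold change of -3.49 ± 1.46. On 207365_x_at, the probe set that stands for the gene, the log2 fold change was 0.09 ± 0.99. KLHL24, which binds keratin 14, had 4 probe sets, all of which were lowest on CD26− replicate 1 except 226158_at, which was lowest on CD26+ replicate 2. Their log2 fold changes ran between -2.21 and 1.25. Further genes with both signs were FBXL18, FBXO41, RNF41, TRIM62 and USP13. Their log2 fold changes ran between -0.19 and 0.35 for FBXL18, -0.33 and 1.31 for FBXO41, -0.72 and 0.49 for RNF41, -0.21 and 1.38 for TRIM62, and -0.78 and 2.30 for USP13. In FBXL18, FBXO41, RNF41 and TRIM62 all listed probe sets were higher in CD26+ cells without CD26+ replicate 2, as were those of USP13. All of them were already higher in the pair of arrays that chose them.

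**Figure D4:**
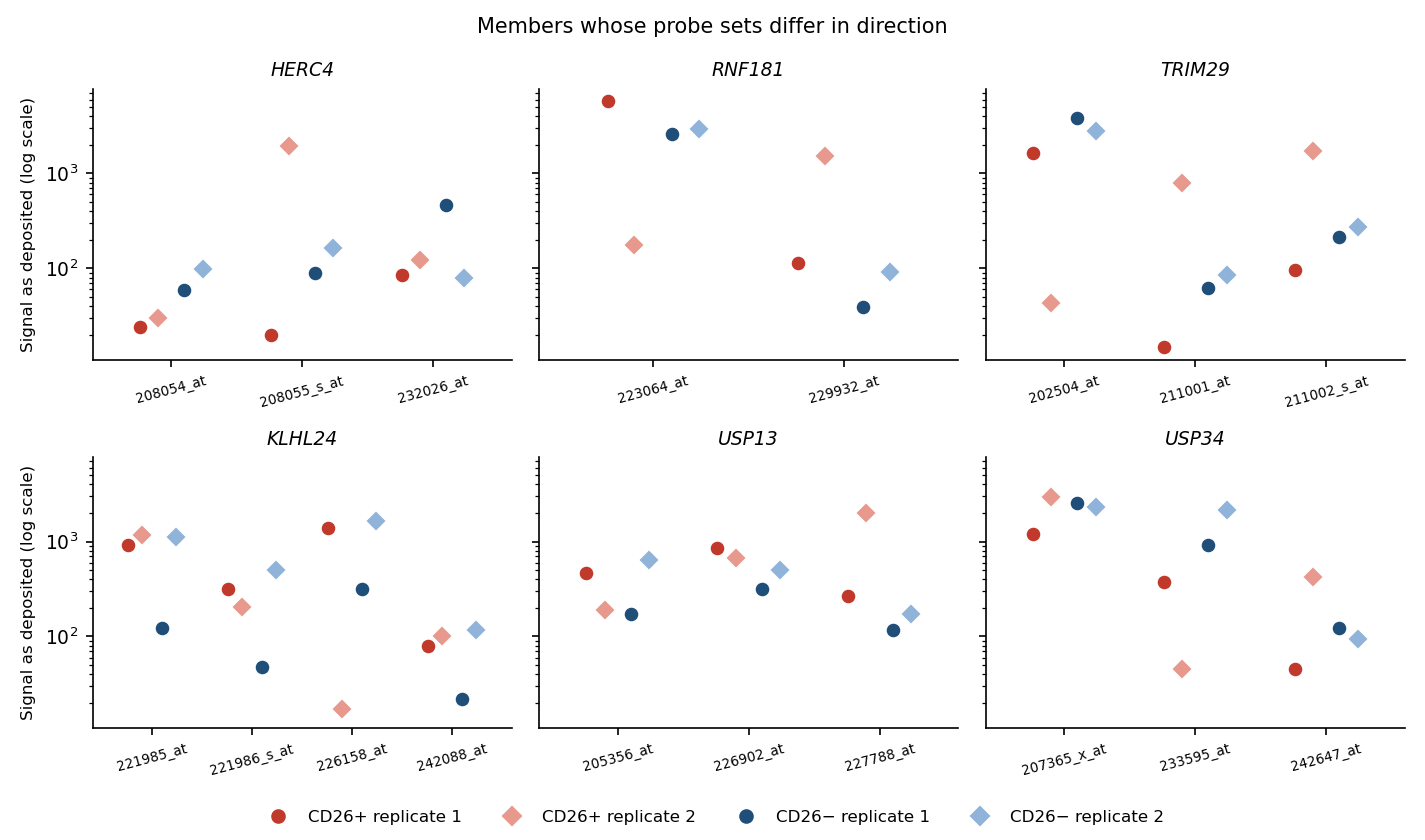
Deposited signal (log axis) on each array for the probe sets of 6 members whose log2 fold changes had both signs, with CD26+ arrays in red and CD26− arrays in blue, replicate 1 as circles and replicate 2 as diamonds. In TRIM29, CD26+ replicate 2 is the lowest array on 202504_at and the highest on 211001_at and 211002_s_at, in RNF181 it is the lowest on 223064_at and the highest on 229932_at, and in USP13 the same array is the highest on 227788_at only.

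The rest of the pathway was read from lists of genes that the name rule did not cover. Of these, 101 genes had a single-symbol probe set in the same list, with 4 (3.96%, against 5.16% of all genes) at least 2-fold higher and 9 (8.91%, against 5.33%) at least 2-fold lower in all 4 pairs, and none passed the test. By list, the counts of higher and lower genes were 0 and 1 of 6 for ubiquitin-like proteins and E1 enzymes, 0 and 1 of 7 for other HECT ligases, 1 and 3 of 33 for other RING, RBR and U-box ligases, 3 and 0 of 21 for parts of cullin ligases, 0 and 1 of 6 for the anaphase-promoting complex, 0 and 1 of 13 for other deubiquitinases, and 0 and 2 of 15 for the proteasome and its shuttles.

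The higher genes were DCAF5, DCAF11, SOCS1 and ZNRF1. DCAF5 and DCAF11 are substrate receptors on CUL4 and SOCS1 is the inhibitor of JAK kinases, a receptor on CUL5. DCAF5 had 181 and 648 in CD26+ cells, against 59.97 and 65.8 in CD26− cells, DCAF11 had 239 and 2553 in CD26+ cells, against 84.5 and 104 in CD26− cells, and the SOCS1 probe set, which aligns to the strand opposite the gene, had 121 and 924 in CD26+ cells, against 29.97 and 60.8 in CD26− cells. ZNRF1, a RING ligase, had 2422 and 2466 in CD26+ cells, against 803 and 946 in CD26− cells. The CD26+ arrays of ZNRF1 were alike as deposited and were at 11.1 and 11.9 on the normalized log2 scale, and its log2 fold change was 1.71 ± 0.83. Among the lower genes, RAD23B, a shuttle that carries ubiquitinated proteins to the proteasome, had 14.2 and 54.8 in CD26+ cells, against 171 and 98.8 in CD26− cells. UFM1, a ubiquitin-like modifier, had 470.3 and 144 in CD26+ cells, against 1788 and 1579 in CD26− cells. PSMB7, a catalytic subunit of the proteasome, had 96.6 and 35.1 in CD26+ cells, against 388 and 399.7 in CD26− cells, and RBBP6, a RING protein of messenger RNA processing, had 346 and 239 in CD26+ cells, against 1080.0 and 1089 in CD26− cells. In these 4 the log2 fold changes were -2.27 ± 0.84, -2.90 ± 1.16, -2.71 ± 1.12 and -2.15 ± 0.96, and the remaining 5 lower genes were CDC27, ITCH, MDM4, SIAH1 and TNFAIP3, of which the ITCH probe set also aligns to the opposite strand.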

How the data were processed

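RNA of FACS-sorted HT29 cells was measured on 4 Affymetrix U133 Plus 2.0 arrays, 2 per group. The deposited intensity of each probe set is a linear signal that the authors made, with Genespring GX and the Genomatix Genome Analyzer as their tools. How probes were summarized and scaled is not given in the sources used here; scaling can move a level between arrays. The number of arrays limits the precision.

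A second table of the authors lists 11430 probe sets from a comparison of 1 CD26+ with 1 CD26− array, with symbols, Entrez identifiers and alignments of unstated build. Its fold change and regulation columns were not used. A repeated header line was left out. Every column of values matched a sample. The members and lists were chosen with earlier results of these data known. Because the table required a difference of at least 2-fold, neither the members nor the 6603 genes used as background are free of that choice. All 123 members matched RefSeq (GRCh38.p14) by Entrez identifier, and 1 had another current symbol. In the table, 11 listed probe sets carry a date in place of a symbol, and 6 of them belong to 4 MARCH genes that the rule therefore missed.

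Signals were quantile normalized, 16 was added, and log2 was taken. After removal of 62 control probe sets, limma 3.58.1 (R 4.3.3; lmFit, eBayes) was fitted to 54613, CD26+ minus CD26−, two-sided, with Benjamini-Hochberg adjustment at 0.05. The fit was tested on simulated data. A gene stands for its listed single-symbol probe set with the highest mean. Named genes were those at least 2-fold apart the same way in all 4 pairs of arrays (at most 12 per direction), the 2 per family with the highest mean, those with probe sets of opposite direction, and up to 4 per direction from the related lists, which gave 48 genes. Other genes were named after their values were seen. Some genes are not reported here. Alternatives were the deposited scale, median centring, pseudocounts of 1 and 64, a replicate block, only bright probe sets, the methods' t-test, a robust trended prior, leaving out each array, averaging the probe sets per gene, and dropping _x_at and _s_at probe sets. Chosen after seeing the data were a representative probe set taken without CD26+ replicate 2 and the addition of the 4 MARCH genes.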

Additional observations from a re-analysis of the deposited data

How the results depend on the processing

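With 2 arrays per group, single arrays decided the counts. The 5 members at least 2-fold higher in all pairs became 10 to 34 when each array was left out (8.13% to 27.6%, against 10.2% to 29.6% of all genes). The 8 lower ones became 16 to 48 (13.01% to 39.0%, against 8.65% to 33.3%). Both rises follow in part from fewer pairs having to hold. The highest counts came without CD26+ replicate 1, when CD26+ replicate 2 alone stood for CD26+ cells. Members with CD26+ replicate 1 above both CD26− arrays (12) became 12 to 40, and those below both (17) became 17 to 31. For these counts no share of all genes is given here outside the main setting, so they say nothing particular to the members. limma then called 0 to 23137 probe sets and 0 to 59 members, the highest values coming without CD26+ replicate 1, when CD26+ replicate 2 alone stood for CD26+ cells. Normalizing the other 3 arrays without CD26+ replicate 2 gave 19 higher (15.4%, against 17.5% of all genes), 23 lower (18.7%, against 12.5%) and 19 above both. Centring gave 14 lower (11.4%, against 7.41%) and 19 above both. A pseudocount of 64 gave 2 higher (1.63%, against 2.20%) and 7 above both. Leaving out _x_at and _s_at probe sets gave 2 higher and 7 above both, with no share of all genes given here. Among the 5 higher members, HERC2, KLHL12 and USP21 have only such probe sets in the list and are lost. As deposited, 520 of all genes were higher and 374 lower in all pairs, against 341 and 352 on the normalized scale and 313 and 489 after centring. The median over all probe sets was 0.63, 0.11 and -0.06 on these scales, and that of the members 0.30, -0.07 and -0.40. With the replicate block limma called 1 probe set and 0 members. Same-numbered arrays deviated together with a correlation of only 0.04 in 2 pairs, so the numbers were not taken to pair the arrays. The methods' t-test had 1846 of 54613 probe sets at its unadjusted threshold. Counted by the probe set that stands for each gene, 4 of 123 members were at that threshold. After Benjamini-Hochberg adjustment it had 0 probe sets.

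Of the 48 named genes, 15 changed direction in at least 1 setting, in 51 instances. The 13 genes set apart in every pairing were chosen for 1 direction, so leaving out an array cannot turn them. The cause was not tested. With 3 arrays normalized without CD26+ replicate 2, the log2 fold changes were CUL1 -1.13, CUL4A -0.95, FBXL18 0.99, FBXO41 1.26, HERC4 -1.84, KLHL15 -0.65, MARCHF3 0.87, RNF139 -1.33, RNF181 0.98, RNF41 1.35, TRIM2 0.41, TRIM62 0.88 and USP34 -0.97. After centring they were CUL1 -0.40, CUL4A -0.51, KLHL15 -0.061, RNF139 -0.92 and USP34 -1.05, and as deposited FBXL18 0.48, FBXO41 0.40, RNF139 -0.23, TRIM62 0.49 and USP34 -0.35. The mean of the probe sets gave FBXL18 0.16, FBXO41 0.49, HERC4 -0.65, KLHL24 -0.30, RNF181 0.32, TRIM62 0.58 and USP34 -1.20. Without _x_at and _s_at probe sets HERC4 was -1.31 and USP34 -3.49, and with the probe set chosen without CD26+ replicate 2 HERC4 was -1.31 and KLHL24 -2.21. Leaving out each array gave ranges of -0.90 to 2.01 for CUL1, -0.76 to 1.26 for CUL4A, -1.18 to 0.80 for FBXL18, -1.67 to 1.01 for FBXO41, -1.77 to 3.89 for HERC4, -0.52 to 2.50 for KLHL15, -2.78 to 0.72 for MARCHF3, -0.75 to 0.60 for OTUD4, -1.28 to 1.31 for RNF139, -4.69 to 0.95 for RNF181, -2.60 to 1.16 for RNF41, -2.04 to 0.37 for TRIM2, -1.14 to 0.71 for TRIM62 and -0.89 to 1.06 for USP34. Arrays give no counts, so a dim signal limits what can be told: 40 and 61 members lay below the array median in CD26+ cells, against 39 and 36 in CD26− cells.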

Other observations

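The 4 MARCH genes whose symbol had become a date were read by Entrez identifier. MARCHF7, a further RING ligase of the family, had 1716 and 338 in CD26+ cells, against 3784 and 3464 in CD26− cells, on 202653_s_at, with a log2 fold change of -2.59 ± 1.24. On 232371_at it had 66.3 and 16.8 in CD26+ cells, against 508 and 482 in CD26− cells, with -3.40 ± 1.11. On 202654_x_at it had 245 and 838 in CD26+ cells, against 716 and 625 in CD26− cells, so that CD26+ replicate 2 was low on 2 of its probe sets and not on the other. MARCHF1, a ligase of MHC class II in antigen-presenting cells, had 27.3 and 109 in CD26+ cells, against 76.2 and 120.2 in CD26− cells, with a log2 fold change of -1.30 ± 0.80. MARCHF6, a ligase of the endoplasmic reticulum, had 15.97 and 395 in CD26+ cells, against 40.4 and 33.1 in CD26− cells, and its CD26+ arrays lay on either side of the CD26− arrays. With these genes included, the members at least 2-fold lower in all pairs numbered 9 and those at least 2-fold higher 5. The shares of all genes were 5.33% and 5.16%. The added lower gene was MARCHF1, which was apart only on the normalized scale. As deposited, its CD26+ replicate 2 at 109 was above CD26− replicate 1 at 76.2. MARCHF7, read on 202653_s_at, fell just short of 2-fold in all pairs.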
